A study of Capra hircus with 3 samples.

Results

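Genes of cholesterol synthesis, uptake, transport and efflux were followed through lactation in the mammary gland of Laoshan dairy goats. The list held 28 gene symbols chosen for their known roles, at a time when earlier results of these data were known. Of these, 26 were found by their NCBI gene ID among the 13023 protein-coding genes with deposited values. IDI1 and CYP51A1 had no gene ID under these symbols in the gene table used and were not analysed here. Per the paper, mammary tissue was taken surgically from 5 goats in all, in early, peak and late lactation. Equal amounts of RNA from the 5 goats went into 1 pooled library for each stage. The goats were healthy, 4 years old and in the third lactation, and no treatment or genotype distinguished the groups. The E library is labelled early lactation, day 10 after parturition. The P library is labelled peak lactation, day 90, and the L library is labelled late lactation, day 210. The values are FPKM, fragment counts divided by the length of the transcript and by the number of mapped reads in the library, so levels can be compared between genes.

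Cholesterol is built from acetyl-CoA. The mevalonate pathway makes isoprene units, these are joined to squalene, squalene is closed to the sterol lanosterol, and lanosterol is trimmed and reduced to cholesterol. When sterols in the endoplasmic reticulum run low, SREBP2 switches on the synthesis genes. When oxysterols accumulate, the nuclear receptors LXR switch on the exporters ABCA1 and ABCG1 and the lipid carrier APOE. In the lactating gland, cholesterol goes into the membrane that wraps each milk fat globule, and it comes both from synthesis in the gland and from plasma lipoproteins.

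With 1 pooled library per stage there is no replicate spread, no difference given here has a replicate check, and no p-value is given. Read numbers per gene are not part of the deposited values, so how many reads stand behind an FPKM is unknown. The stage of the P and L libraries rests on the GEO labels alone. In the tables published with the study, which were not used for any value here, the same letters are attached to these columns the other way round. If the columns were exchanged, every ratio of L over P given below would change sign, and every ratio over the E library would pass from P to L and from L to P. CSN3, the gene of kappa-casein, had 25445 FPKM in the E library, 3989 FPKM in the P library and 27391 FPKM in the L library. LALBA, the gene of alpha-lactalbumin, had 70053 and 15214 FPKM in the E and P libraries and was listed at 0 in the L library. The luminal keratin gene KRT19 was present at 439, 413 and 364 FPKM in the E, P and L libraries. The most abundant locus of each library took 30.0%, 46.0% and 29.9% of all FPKM in the E, P and L libraries. The median log2 ratio of protein-coding genes lay close to 0 in each comparison, at 0.01 for P over E, -0.03 for L over E and -0.02 for L over P. Rescaling without the 20 most abundant loci moved all log2 ratios by 0.25 for P over E, 0.04 for L over E and -0.21 for L over P.

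All 26 genes were above 0 FPKM in the 3 libraries, and together they made up 0.062%, 0.0637% and 0.088% of the FPKM in the E, P and L libraries. The widest differences lay between the P and L libraries. There, 17 of the 26 genes were at least 2-fold apart, against a background of 24.7% of 12807 protein-coding genes with a value above 0 in both libraries. Of the 17 genes, 13 were higher in the L library (background 8.57%) and 4 were higher in the P library (background 16.2%). The 13 genes were 12 synthesis genes and NPC1, and the 4 genes were ABCA1, ABCG1, APOE and LRP1. After rescaling, FDFT1, SQLE, NSDHL and NPC1 fell under 2-fold, which left 9 genes higher in the L library (background 6.09%), and 4 genes were higher in the P library (background 20.1%). Between the E and P libraries, 6 of 26 genes were at least 2-fold apart (background 17.2%). ABCA1, ABCG1, APOE and LRP1 were higher in the P library (background 10.5%), and PMVK and SC5D were lower (background 6.69%). After rescaling, 5 genes were at least 2-fold higher in the P library (background 16.0%) and none was at least 2-fold lower (background 4.30%). Between the E and L libraries, 3 of 26 genes were at least 2-fold apart (background 7.08%). TM7SF2 was higher in the L library (background 1.64%), and ABCA1 and ABCG1 were lower (background 5.44%), ABCA1 no longer by 2-fold after rescaling. Each library enters 2 of the 3 comparisons, which are therefore not independent.

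**Figure D1:**
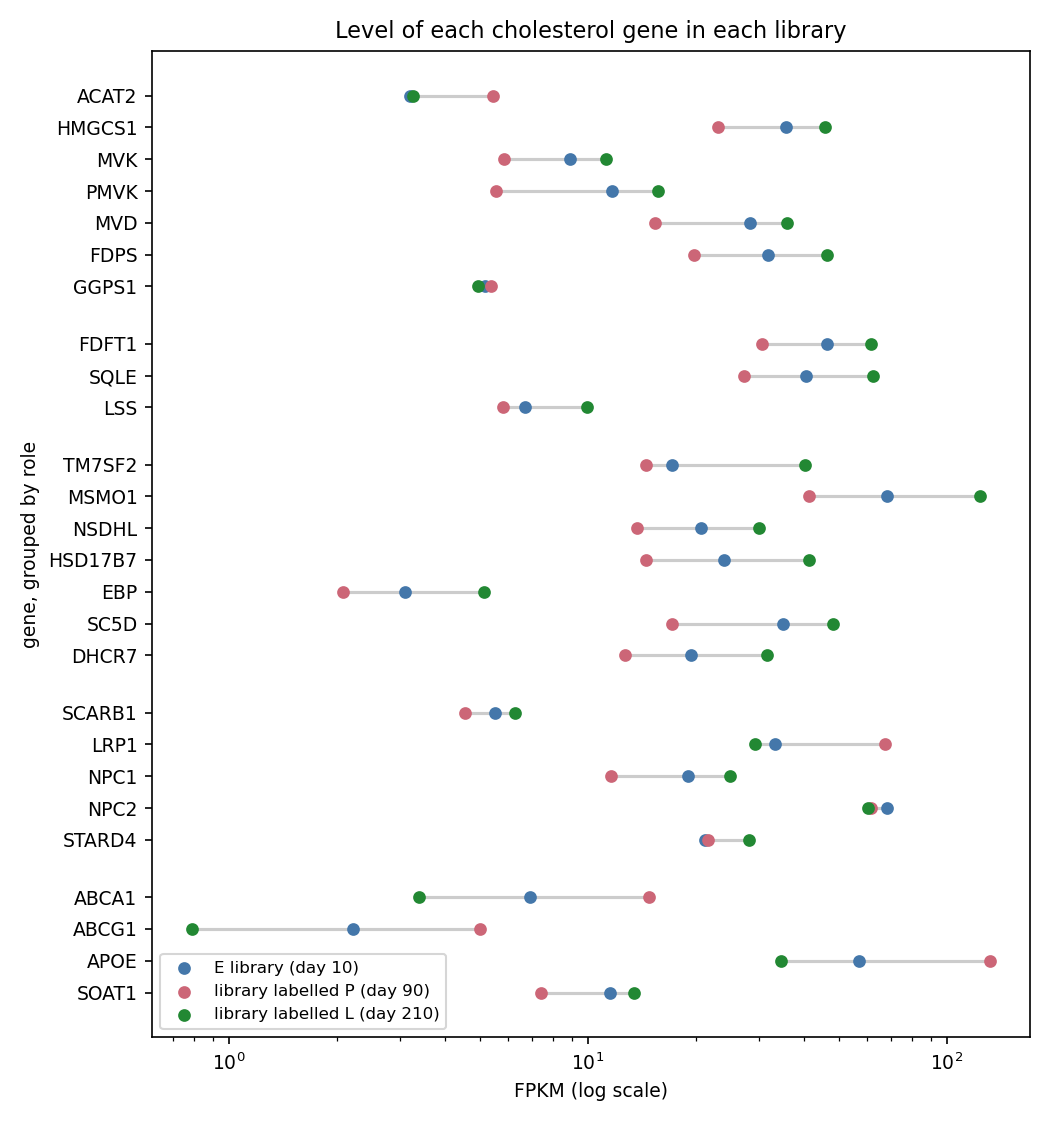
FPKM on a log axis for each of the 26 cholesterol genes, with 1 point per library coloured by stage label and a grey line from the lowest to the highest value. In 15 of the 17 synthesis genes, from ACAT2 to DHCR7, the P library is the lowest and the L library the highest, while ABCA1, ABCG1 and APOE stand in the opposite order.

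Synthesis genes were lowest in the P library and highest in the L library. This order, L above E above P, was found in 15 of 17 synthesis genes, against 26.4% of the 12764 protein-coding genes above 0 in all libraries. The median log2 ratio of the 17 genes was -0.61 for P over E, 0.54 for L over E and 1.22 for L over P. The summed level of the 17 genes was 405 FPKM in the E library, 260 FPKM in the P library and 616 FPKM in the L library. Among the 15 genes, the L library exceeded the P library by between 1.71-fold and 2.99-fold. GGPS1 and ACAT2 did not follow this order. After rescaling, LSS and TM7SF2 also left it, with log2 ratios of P over E of 0.05 and 0.01. That left 13 of 17 genes lower in the P than in the E library. The order was not counted over all protein-coding genes on rescaled values.

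The mevalonate steps were represented by 7 genes. HMGCS1, the cytosolic HMG-CoA synthase, had 35.5 FPKM in the E library, 23.1 FPKM in the P library and 45.7 FPKM in the L library. Its L over P ratio was 1.98-fold, just under the 2-fold threshold. Mevalonate kinase, MVK, had 8.92, 5.82 and 11.2 FPKM in the E, P and L libraries. The next kinase of the pathway, PMVK, had 11.6, 5.53 and 15.7 FPKM. PMVK thus had a log2 ratio of L over P of 1.51, the highest of the mevalonate genes, and MVK one of 0.95. MVD, which decarboxylates mevalonate diphosphate to the isoprene unit, had 28.2, 15.4 and 35.9 FPKM in the E, P and L libraries. FDPS, which joins isoprene units to farnesyl diphosphate, had 31.7, 19.7 and 46.3 FPKM. MVD and FDPS were 2.33-fold and 2.35-fold higher in the L than in the P library. FDPS and PMVK lie on the same scaffold, 337.2 kb apart.

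GGPS1 leaves the sterol route at farnesyl diphosphate and makes geranylgeranyl diphosphate, the lipid anchor of many small GTPases. It had 5.17, 5.35 and 4.93 FPKM in the E, P and L libraries, a range of 1.09-fold. Its level was thus nearly the same in the 3 libraries, while FDPS, the step before it, ranged over 2.35-fold. ACAT2, the cytosolic thiolase at the entry of the pathway, had 3.20, 5.43 and 3.25 FPKM and was highest in the P library. ACAT2 is listed at the same locus as TCP1, a chaperonin gene with 48.2, 41.0 and 45.3 FPKM, and whether reads of the 2 genes were told apart there was not tested.

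The steps from farnesyl diphosphate to lanosterol were represented by 3 genes. FDFT1, squalene synthase, had 46.4 FPKM in the E library, 30.6 FPKM in the P library and 61.4 FPKM in the L library. SQLE, the squalene epoxidase and a rate-controlling enzyme of the sterol branch, had 40.6, 27.3 and 62.3 FPKM. FDFT1 and SQLE were thus at similar levels in each library and were 2.01-fold and 2.28-fold higher in the L than in the P library, with log2 ratios of 0.79 and 0.98 after rescaling. LSS, which closes the ring to lanosterol, had 6.68, 5.81 and 9.93 FPKM. LSS was the member of this group with the narrowest difference between the L and P libraries, at 1.71-fold, and its log2 ratio of P over E of -0.20 became 0.05 after rescaling. LSS lies on the same scaffold as ABCG1, 3405.7 kb away, and the log2 ratio of L over P was 0.77 for LSS and -2.66 for ABCG1.

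All 7 genes from lanosterol to cholesterol were at least 2-fold higher in the L than in the P library (background 8.57%). The range ran from 2.18-fold for NSDHL to 2.99-fold for MSMO1. After rescaling, NSDHL had a log2 ratio of 0.91, under 2-fold, and the other genes of this group kept the call (background 6.09%). MSMO1, the sterol C4 methyl oxidase, is listed on scaffold NW_005100850.1 from 422113 to 439104 and reached 68.2, 41.2 and 123 FPKM in the E, P and L libraries. It was the most abundant synthesis gene of the list in every library. NSDHL and HSD17B7 complete the removal of the C4 methyl groups. NSDHL had 20.6, 13.7 and 30.0 FPKM in the E, P and L libraries, and HSD17B7 had 23.9, 14.5 and 41.2 FPKM. EBP, the sterol isomerase, was the least abundant gene of this group, at 3.09, 2.07 and 5.13 FPKM, so that MSMO1 exceeded it by 22.1-fold, 19.9-fold and 24.0-fold in the E, P and L libraries. SC5D, which introduces the C5 double bond, had 34.9, 17.1 and 48.1 FPKM. DHCR7, which reduces 7-dehydrocholesterol to cholesterol, had 19.3, 12.7 and 31.6 FPKM. SC5D had the lowest log2 ratio of P over E in this group, -1.03, and DHCR7 had -0.61.

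TM7SF2 and LBR, a gene of the further pathway list, encode alternative sterol C14 reductases, and their values stood in different orders. TM7SF2 had 17.2 FPKM in the E library, 14.5 FPKM in the P library and 40.3 FPKM in the L library. LBR had 15.7, 22.5 and 13.9 FPKM. The level of TM7SF2 was 1.09 times that of LBR in the E library, 0.647 times in the P library and 2.89 times in the L library, a ratio within each library that no scaling between libraries alters. TM7SF2 was the only gene of the 26 at least 2-fold higher in the L than in the E library, with a log2 ratio of 1.23. Its log2 ratio of P over E, -0.24, became 0.01 after rescaling.

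The median log2 ratio of L over E was 0.35 over the 7 mevalonate genes, 0.57 over the 3 genes from squalene synthase to lanosterol and 0.73 over the 7 genes after lanosterol. The ranges of these groups overlapped, from -0.07 to 0.55, from 0.40 to 0.62 and from 0.46 to 1.23. The P over E medians lay closer together, at -0.62, -0.57 and -0.61. The order of the synthesis genes by level was similar in all libraries. MSMO1 ranked first of 17 in each, 16 of the 17 genes moved by at most 2 places, and TM7SF2 moved by 3. Across the 17 genes, which are not independent, Spearman's coefficient between the levels was 0.97 for E and P, 0.96 for E and L and 0.96 for P and L. No such coefficient was computed for other genes, so a similar order is not shown to be particular to these.

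**Figure D2:**
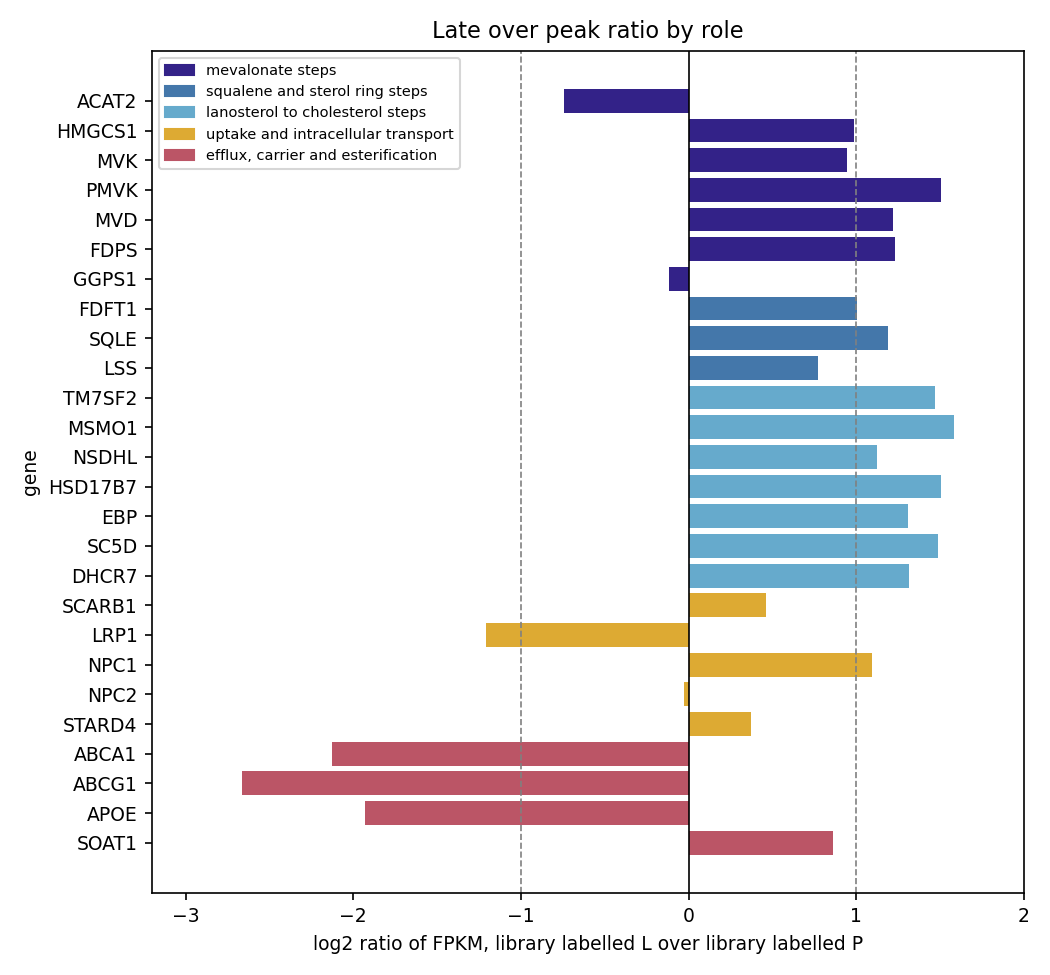
Log2 ratio of FPKM of the L over the P library for each of the 26 genes, in pathway order and coloured by role, with dashed lines at a 2-fold difference. All 7 genes after lanosterol lie beyond the line at 1 (background 8.57%), NSDHL only before rescaling. ABCA1, ABCG1, APOE and LRP1 lie beyond the line at -1 (background 16.2%).

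Uptake and transport genes did not share a direction. Of the 5 genes, 3 were higher in the L than in the P library (background 48.8%) and 2 were lower (background 51.2%), with a median log2 ratio of 0.37. SCARB1, the receptor through which cells take cholesteryl esters from HDL, had 5.49 FPKM in the E library, 4.55 FPKM in the P library and 6.26 FPKM in the L library. LRP1, a large endocytic receptor of remnant lipoproteins and many other ligands, had 33.1, 67.3 and 29.1 FPKM. LRP1 thus stood in the opposite order to SCARB1, and its level was 6.02, 14.8 and 4.65 times that of SCARB1 in the E, P and L libraries. NPC1, the membrane protein that exports cholesterol from lysosomes, had 19.0, 11.6 and 24.8 FPKM and was 2.14-fold higher in the L than in the P library, a log2 ratio that fell to 0.88 after rescaling. NPC2, its soluble partner in the lysosome lumen, had 68.1, 61.6 and 60.4 FPKM. Its values spanned 1.13-fold, and the sign of its log2 ratio of P over E, -0.14, turned to 0.11 after rescaling. The partners NPC1 and NPC2 therefore differed in their pattern, with 3.59, 5.31 and 2.43 times as much NPC2 as NPC1. STARD4, a cytosolic sterol carrier, had 21.2, 21.7 and 28.0 FPKM.

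The efflux genes ABCA1 and ABCG1 and the carrier gene APOE were highest in the P library and lowest in the L library, the reverse of the synthesis genes. The order P above E above L held for 3 of the 4 genes of the efflux, carrier and esterification list, against 30.3% of protein-coding genes. These 3 genes were set apart from the fourth, SOAT1, after their values were seen. ABCA1, which hands cholesterol and phospholipid to lipid-poor apolipoproteins, is listed on scaffold NW_005100742.1 from 6790134 to 6921580 and reached 6.88, 14.8 and 3.38 FPKM in the E, P and L libraries. ABCG1, which passes cholesterol on to HDL, had 2.22, 4.99 and 0.789 FPKM. APOE had 56.7, 132 and 34.6 FPKM. Their log2 ratios of L over P were -2.13 for ABCA1, -2.66 for ABCG1 and -1.93 for APOE, beside a median of -0.02 over all protein-coding genes. ABCG1 had the widest range of the 26 genes, 6.33-fold, and in the L library it was the only one of them under 1 FPKM. SOAT1, which esterifies cholesterol for storage, did not share this order. It had 11.5, 7.40 and 13.4 FPKM, with a log2 ratio of L over P of 0.86.

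Set against each other within a library, where the scale between libraries cancels, the efflux and synthesis genes diverged. The summed FPKM of ABCA1, ABCG1 and APOE was 0.162 times that of the 17 synthesis genes in the E library, 0.583 times in the P library and 0.0629 times in the L library. APOE was the largest term of this sum in each library, at 56.7, 132 and 34.6 FPKM. Because the 3 genes were grouped with their order known, the divergence follows from that order and adds no separate evidence. APOE stood at 0.831, 3.20 and 0.280 times the level of MSMO1, and ABCA1 at 0.170, 0.542 and 0.0543 times that of SQLE. APOE was thus above MSMO1 in the P library and below it in the E and L libraries.

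**Figure D3:**
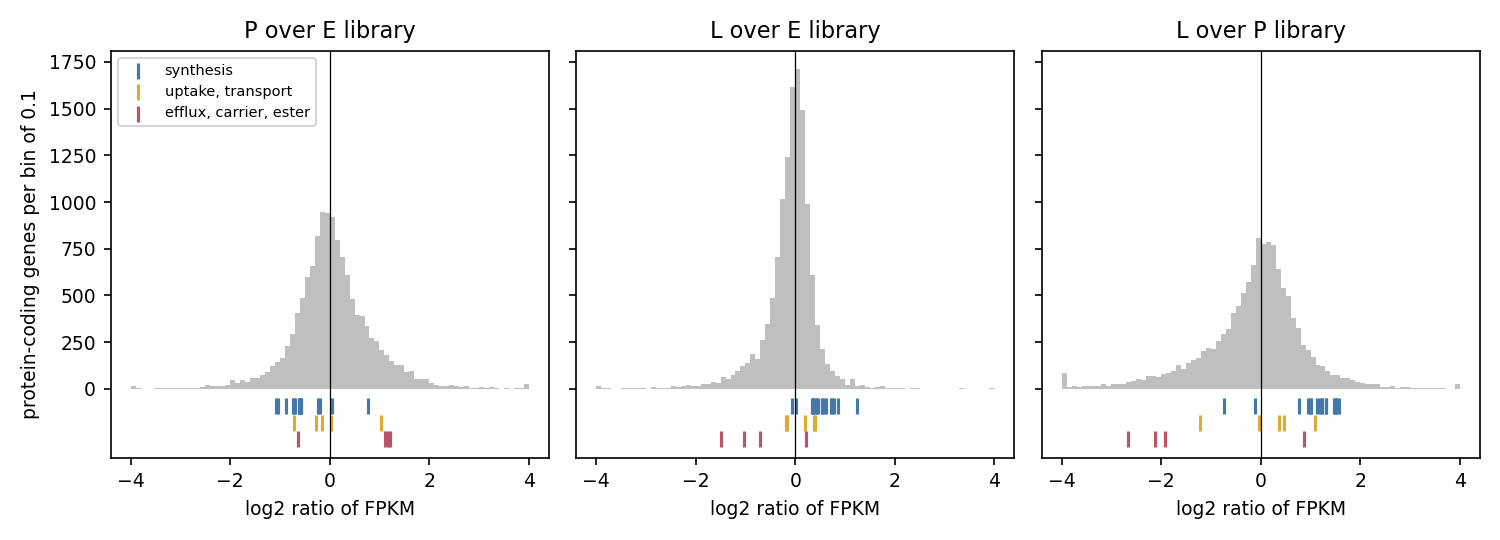
Number of protein-coding genes per bin of the log2 ratio of FPKM (values beyond 4 or -4 are placed in the end bins), with ticks below each histogram for the synthesis, uptake and transport, and efflux, carrier and ester genes. In the panel of L over P, 15 of 17 synthesis ticks lie right of 0 and 3 of the 4 efflux, carrier and ester ticks lie left of it.

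The tissue was bulk mammary gland, so fewer cells of a type and less RNA per cell cannot be told apart. ABCA1, ABCG1, APOE and LRP1 are also expressed by macrophages, and most macrophage markers stood in the same order as these genes. Of 12 listed markers, 9 were found, none was at 0, and 8 were highest in the P library and lowest in the L library, against 30.3% of protein-coding genes. Among the 8, CD14 was nearly level, at 12.4, 12.5 and 11.3 FPKM. The exception was MSR1, which was highest in the E library. Their summed level was 195 FPKM in the E library, 326 FPKM in the P library and 105 FPKM in the L library, with single markers reaching up to 58.5, 107 and 28.4 FPKM. CSF1R, the receptor of the macrophage growth factor, had 16.6, 25.6 and 7.55 FPKM, and the complement gene C1QA had 58.5, 107 and 28.4 FPKM. Related to CSF1R, ABCA1 stood at 0.415, 0.578 and 0.448 times its level, and related to C1QA, APOE stood at 0.969, 1.23 and 1.22 times its level in the E, P and L libraries. ABCG1 stood at 0.134, 0.195 and 0.104 times the level of CSF1R. The outcome depended on the marker. Across the 9 markers, the ratio of ABCA1 to a marker spanned from 1.16-fold with C1QB to 4.24-fold with MSR1 between libraries, beside 4.37-fold for the level of ABCA1 itself. In relation to CD14, ABCA1 stood at 0.554, 1.18 and 0.298 times its level. The ratio of ABCG1 to a marker spanned from 1.5-fold to 6.15-fold and that of APOE from 1.18-fold to 3.70-fold. Of 5 T cell markers, 4 were also highest in the P library (background 43.4%), and CD3E was listed at 0 in the E and P libraries. The summed level of the 5 markers was 16.4, 42.0 and 6.59 FPKM. CD3E is listed at a locus shared with MPZL3 and MPZL2, and the macrophage marker CD68 at one shared with EIF4A1. Whether reads of these genes were told apart was not tested. The part of macrophages and T cells in the efflux result was not tested.

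Markers of milk-producing epithelium did not move as 1 group. EPCAM, an epithelial adhesion gene, had 77.8, 60.0 and 76.4 FPKM in the E, P and L libraries, KRT8 had 126, 196 and 154 FPKM, and ELF5, a transcription factor of the secretory epithelium, had 879, 244 and 875 FPKM. Of the 7 luminal markers, 5 were lower in the P than in the E library (background 49.5%), and the median log2 ratio was -0.37. The summed synthesis genes stood at 5.21, 4.33 and 8.07 times the level of EPCAM, 3.22, 1.33 and 4.0 times that of KRT8, and 0.461, 1.07 and 0.704 times that of ELF5. The order of the libraries thus held in relation to EPCAM and KRT8 and not in relation to ELF5. The other luminal markers were not set against the summed synthesis genes. The milk protein genes CSN3 and LALBA had log2 ratios of P over E of -2.67 and -2.20, and ELF5 had -1.85. These were below the median of -0.61 of the synthesis genes, while KRT18 and KRT19 were above it, at 0.61 and -0.09. The part of the epithelial share of the tissue in the synthesis result was not tested. The summed level of endothelial markers was 123, 111 and 135 FPKM, that of myoepithelial markers 255, 247 and 259 FPKM, and that of fibroblast markers 409, 427 and 322 FPKM. These sums join genes of unlike order. Of 5 fibroblast markers, 2 were highest in the P library (background 43.4%) and 3 were lowest there (background 41.9%). The 2 were DCN, with 131, 254 and 106 FPKM, and PDGFRA, with 13.7, 28.0 and 11.3 FPKM. Of 5 myoepithelial markers, 1 was highest and 3 were lowest in the P library. The 4 adipocyte markers found summed to 18.9, 6.44 and 6.41 FPKM, and PLIN4 was listed at 0 in the L library.

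**Figure D4:**
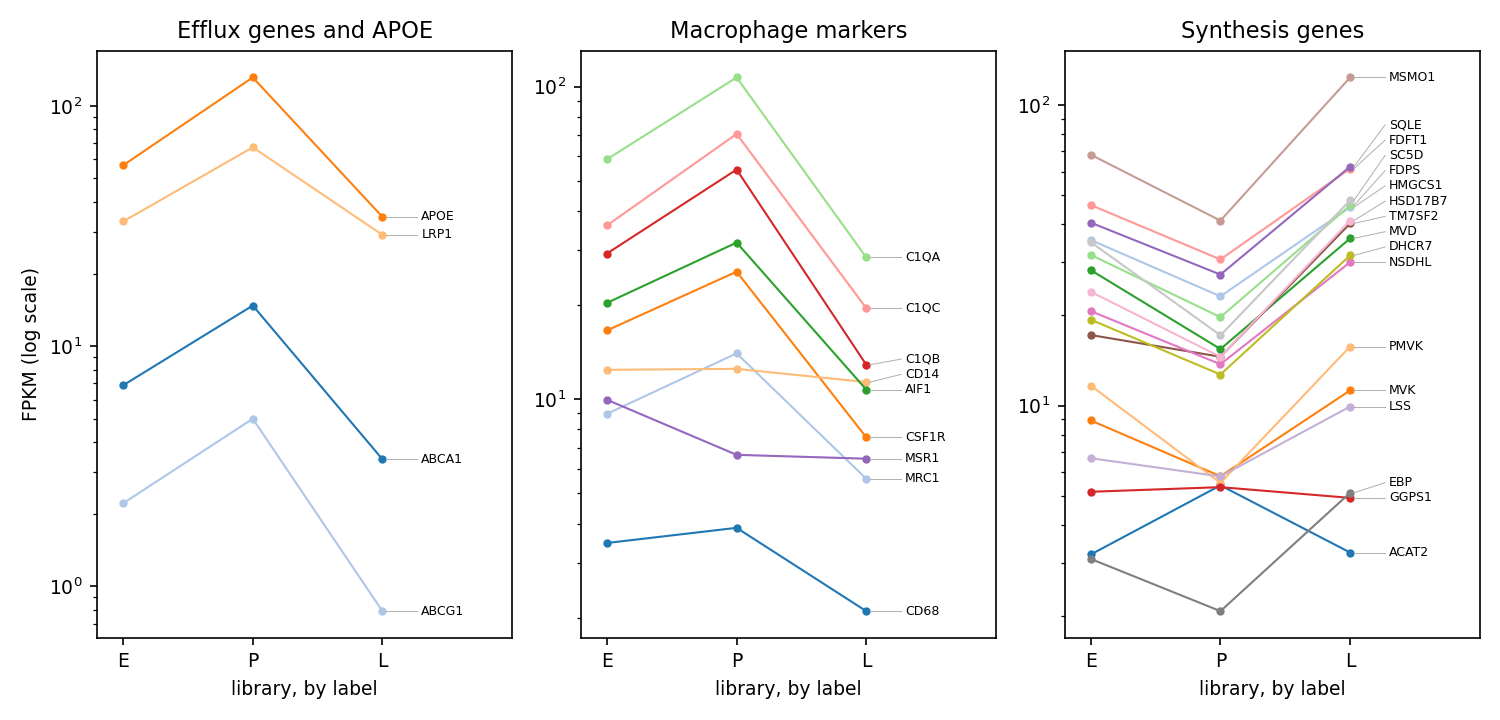
FPKM on a log axis in the E, P and L libraries for ABCA1, ABCG1, APOE and LRP1, for the 9 macrophage markers found and for the 17 synthesis genes, with lines that join the values of 1 gene. The efflux genes and 8 of 9 macrophage markers peak in the P library, where 15 of 17 synthesis genes have their lowest value.

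Of 35 further genes of sterol handling, 28 were found, and they were divided. Between the P and L libraries, 5 were at least 2-fold higher (background 8.57%) and 10 at least 2-fold lower (background 16.2%) in the L library. After rescaling, LRP8 and INSIG1 were the 2 genes still at least 2-fold higher (background 6.09%), and the same 10 genes were lower (background 20.1%). These counts cover the genes listed and not all genes of sterol handling. TMEM97, a sterol-regulated membrane protein, LRP8, a lipoprotein and reelin receptor, GRAMD1B, a sterol carrier between membranes, and ACAT1, the mitochondrial thiolase, were 2.19-fold, 2.60-fold, 2.28-fold and 2.01-fold higher in the L than in the P library.

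Regulators of the pathway did not share a single pattern. SREBF2 was not analysed here. SCAP, which escorts SREBP to the Golgi, had 5.95, 6.75 and 4.82 FPKM in the E, P and L libraries. INSIG1, a target of SREBP that holds SCAP back in the endoplasmic reticulum, had 107, 105 and 256 FPKM. It was thus at similar levels in the E and P libraries and 2.44-fold higher in the L than in the P library. INSIG2, its paralog, had 8.02, 7.80 and 9.90 FPKM. For both, the sign of the small log2 ratio of P over E, -0.02 and -0.04, turned after rescaling.

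The 10 further genes at least 2-fold lower in the L than in the P library included the LXR alpha gene and genes of sterol handling outside synthesis. NR1H3, the gene of LXR alpha, had 5.60, 8.20 and 3.86 FPKM in the E, P and L libraries, and NR1H2, the gene of LXR beta, had 14.9, 12.5 and 14.7 FPKM. MYLIP, an LXR target that encodes a ubiquitin ligase, had 8.78, 19.1 and 6.57 FPKM. MYLIP thus had the same order as ABCA1, P above E above L. ABCG8, a sterol exporter subunit, had 0.393, 2.06 and 0.277 FPKM, and its partner ABCG5 was not analysed here. PLTP, which transfers phospholipids between lipoproteins, had 20.2, 34.3 and 9.24 FPKM, at a locus shared with CTSA. CH25H, which makes 25-hydroxycholesterol, had 1.84, 3.50 and 1.15 FPKM. LIPA, the lysosomal lipase that frees cholesterol from esters, NCEH1, a cytosolic ester hydrolase, STARD5, a sterol carrier, GRAMD1A and APOA1 were 2.43-fold, 3.16-fold, 3.32-fold, 2.02-fold and 2.20-fold higher in the P than in the L library. Apart from these 10 genes, LCAT, which esterifies cholesterol on HDL, had 20.5, 11.6 and 7.95 FPKM at a locus shared with SLC12A4. GRAMD1C had 1.09, 3.82 and 3.47 FPKM, at a locus shared with another gene.

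**Figure D5:**
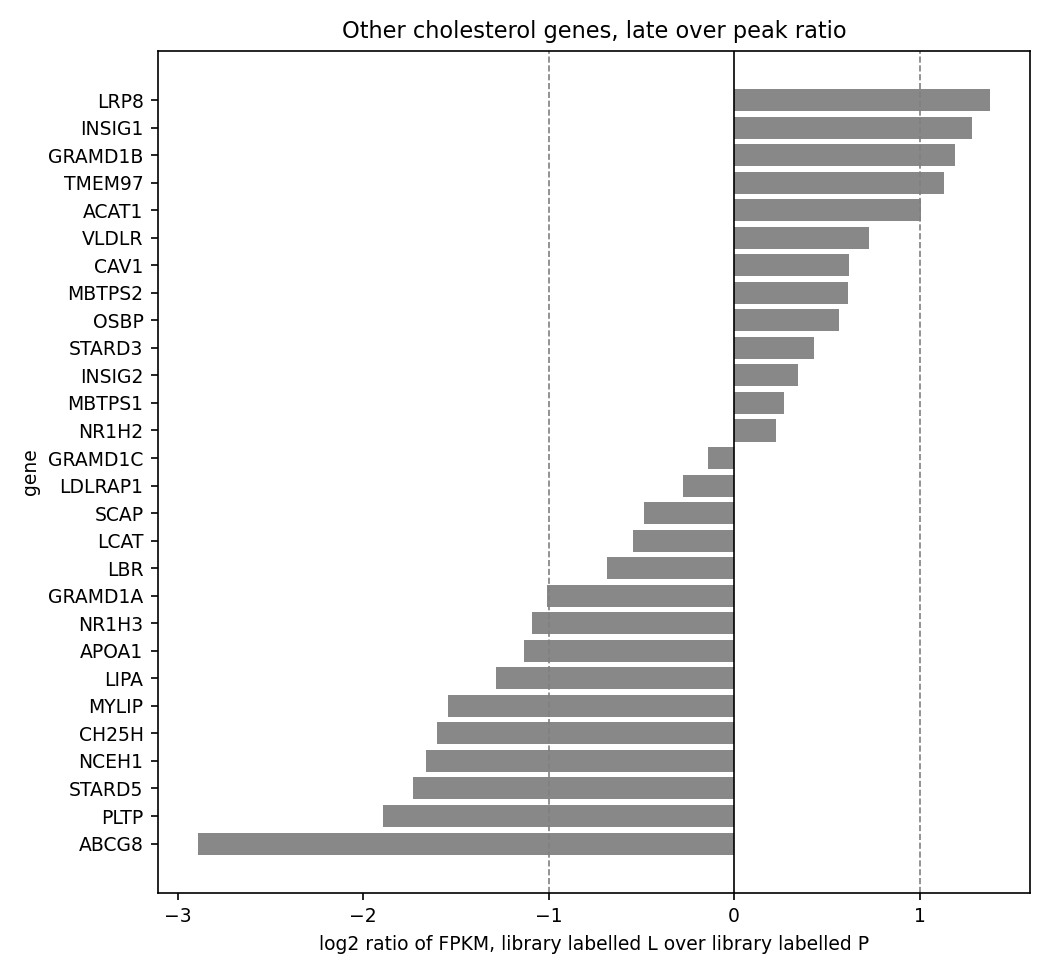
Log2 ratio of FPKM of the L over the P library for the 28 further genes of sterol handling found, sorted by the ratio, with dashed lines at a 2-fold difference. LRP8 heads the 5 genes past the line at 1 (background 8.57%), of which LRP8 and INSIG1 stay past it after rescaling (background 6.09%). ABCG8 ends the 10 genes past the line at -1 (background 16.2%).

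The isoprenoid branch beyond GGPS1, which supplies dolichol, ubiquinone and protein prenylation, had 9 of 10 genes found. None of the 9 was at least 2-fold apart between the P and L libraries (background 24.7%), and the median log2 ratio was 0.10. RABGGTB, the beta subunit of the Rab prenyl transferase, was the only gene of the branch at least 2-fold apart in any comparison. It was so between the E and P libraries (background 17.2%), with 46.2 FPKM in the E library, 21.4 FPKM in the P library and 36.1 FPKM in the L library. Its log2 ratio of P over E, -1.11, became -0.86 after rescaling, under 2-fold. Fatty acid synthesis genes, with 7 of 8 found, had a median log2 ratio of L over P of 1.41, beside 1.22 for the cholesterol synthesis genes, and the difference was not tested. FASN, the fatty acid synthase, had 1175, 508 and 2036 FPKM, and ACACA, the acetyl-CoA carboxylase, had 106, 51.1 and 196 FPKM. SCD, ACSS2 and ELOVL6 were 2.37-fold, 2.75-fold and 2.66-fold higher in the L than in the P library. The exceptions were ACLY, the cytosolic source of acetyl-CoA from citrate, with 12.6, 18.7 and 10.7 FPKM, and ME1, a source of NADPH, with 0.996, 2.39 and 2.43 FPKM. The summed cholesterol synthesis genes stood at 0.345, 0.512 and 0.303 times the level of FASN in the E, P and L libraries.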

How the data were processed

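The authors trimmed paired-end reads with Trimmomatic, mapped them with TopHat2 2.0.9, assembled them with Cufflinks 2.1.1, merged the assemblies and quantified them with Cuffdiff, per the paper's methods and the submitters' processing notes. The authors deposited 1 column of FPKM for each library, over 50041 loci on scaffolds of an assembly that is not named in the deposited values. Of the values with 7 or more significant digits, 97.6% end in 5, as averages of a pair of shorter numbers would, and no spread within a library can be had from them. Columns were assigned by the sample labels.

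Gene IDs were matched to symbols through a RefSeq gene table (assembly ARS1.2), used for names and classes only, and loci of 1 gene ID were summed. Each of the 26 genes had 1 locus. Log2 ratios were taken from FPKM as deposited, for genes above 0 in both libraries, and a 2-fold difference was called by fold alone. The background is the protein-coding genes with such a ratio. No test was run. Some genes of the further lists are not reported here. The gene lists were chosen with earlier results of these data known. Every gene of the main list is named, and from the further lists SCAP and INSIG1 and genes at least 2-fold apart in any comparison with at least 1 FPKM in either library. INSIG2, LBR, NR1H2, ACLY, TCP1 and the marker genes were named after their values were seen. ABCA1, ABCG1 and APOE were also grouped without SOAT1 after their values were seen. Alternatives were a pseudocount of 1, 0 set to 0.001, a minimum of 1 FPKM, the most abundant locus of each gene, median centring, rescaling, a 1.5-fold threshold and the exchange of the P and L columns. Fold counting was tested on simulated data. Python 3.11.15, numpy 2.4.6, pandas 2.3.3 and matplotlib 3.10.9 were used.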

Additional observations from a re-analysis of the deposited data

How the results depend on the processing

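With 1 library per stage, no replicate could be left out, and depth per gene is unknown. No paired analysis was possible because there was a single pooled library for each stage. The 17 genes at least 2-fold apart between P and L stayed within 1.5 times under the 8 alternatives. The count ran from 13 after rescaling (26.2% of protein-coding genes) to 22 at the 1.5-fold threshold (43.1%). The value set for 0, the most abundant locus and the exchange of P and L could not change this count. All 26 genes were above 0 with 1 locus each, and the exchange only turns the sign. A pseudocount of 1, which shrinks ratios of low values by construction, left 3 genes between E and P (9.17% of protein-coding genes), all higher in P, and 1 between E and L (2.13%). At a 1.5-fold threshold, 18 genes were apart between E and P (36.4%) and 9 between E and L (16.3%). With the P and L columns exchanged, 3 were apart between E and P (7.08%) and 6 between E and L (17.2%). The exchange also reversed the median log2 ratio of the 17 synthesis genes to 0.54 for P over E, -0.61 for L over E and -1.22 for L over P, and that of ABCA1, ABCG1 and APOE to -1.02, 1.17 and 2.13. Rescaling without the 20 most abundant loci gave synthesis medians of -0.36, 0.58 and 1.01, with 13 of 17 genes still lower in P than in E, and called 5 genes higher and none lower in P than in E (20.3% of protein-coding genes in either direction), 1 higher and 1 lower in L than in E (6.90%), and 9 higher and 4 lower in L than in P (26.2%). No other alternative reversed a median. The cause of these shifts was not tested beyond the construction of the threshold and the pseudocount.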
